A study of Mus musculus with 3 samples.

Results

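Fibroblast growth factors (FGFs) are secreted signals, and 9 genes of this family were followed in the distal limb bud: the ligands Fgf4, Fgf8, Fgf9, Fgf17, Fgf10 and Fgf18 and the receptors Fgfr1, Fgfr2 and Fgfr3. They are 9 of the 22372 protein-coding genes with an annotated coding start. The peaks of each gene are those that overlap its span or lie within 100 kb of its start, and this interval is called its neighbourhood here. RNA polymerase II (RNAP2) and Med12, which belongs to the Mediator complex and so to the bridge between enhancers and the polymerase, were mapped by ChIP-seq in cells of distal forelimbs from mouse embryos at E12.5. There is 1 library for each of the 2 antibodies and 1 input library, so that no value below has a replicate error. The labels give no strain and no treatment, and the number of pooled embryos is not given in the sources used here. The cells were dissociated from the dissected tissue. No separation of cell types is described, and how much ectoderm was kept is not stated. The text that accompanies the series names another stage, and the stage of the sample labels is used.

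The deposited lists hold 20479 RNAP2 peaks, with a median score of 123, and 10634 Med12 peaks, with a median score of 56.8. A score is 10 times the negative log10 of the p-value that the authors' peak caller gave, and the lowest score in both lists is 40. The p-value threshold stated in the methods corresponds to a score of 50, and 14.1% of RNAP2 and 35.9% of Med12 peaks score less. In the neighbourhoods of the FGF genes these are 5 RNAP2 peaks, among them the only one inside Fgf8, and 4 Med12 peaks, both of those around Fgf10, one inside Fgf18 and one inside Fgfr2. Deeper libraries give higher scores, the numbers of reads per library are stated in the methods but no read counts per peak are in the lists, and scores are therefore compared within a list and not between RNAP2 and Med12. A site missing from a list had no peak above that minimum, which is not the same as an absence of binding.

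Limb outgrowth depends on a loop of FGF signals between the tissues of the bud. The apical ectodermal ridge, a thin strip of ectoderm along the distal rim, secretes FGF8, FGF4, FGF9 and FGF17, which keep the mesenchyme beneath it growing. The mesenchyme secretes FGF10, which acts on the ectoderm through the b isoform of FGFR2, and receives the ridge signals through FGFR1 and the c isoform of FGFR2. FGF18 and FGFR3 act mainly in the forming skeleton, where FGFR3 restrains the growth of cartilage. The genes were therefore read in 2 groups, 4 ridge ligands and 5 mesenchymal genes, with the reservation that Fgfr2 is also used in ectoderm. These roles hold for limb outgrowth in general, and which of the genes are still expressed at E12.5 was not measured here.

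RNAP2 peaks were found at the start of 5 of the 9 genes, which are Fgf9, Fgf10, Fgfr1, Fgfr2 and Fgfr3, and the scores separated the receptors from the ligands. The 3 receptors scored 1022 (Fgfr1), 1377 (Fgfr2) and 1228 (Fgfr3), whereas Fgf9 and Fgf10 scored 95.2 and 99.97. No RNAP2 peak lay within 1 kb of a coding start of Fgf4, Fgf8, Fgf17 or Fgf18. Of all protein-coding genes, 41.8% have an RNAP2 peak within 1 kb of a coding start, so that 5 of 9 is not far from the background. A score of 1000 or more at a start was reached by 9.68% of all genes and by 3 of the 9, all of them receptors. By group, 1 of 4 ridge ligands and 4 of 5 mesenchymal genes had an RNAP2 peak at a start. With a score of at least 100 required, the 3 receptors were left, against 35.3% of all genes, and Fgf10 missed that minimum narrowly.

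**Figure D1:**
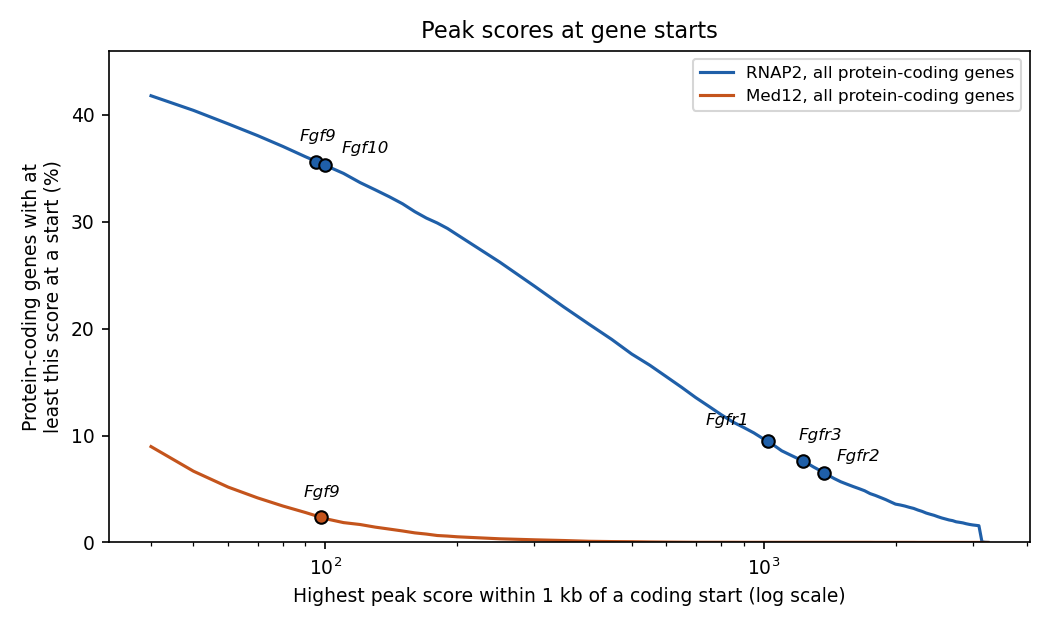
Share of all protein-coding genes (y axis, percent) that reach a given peak score within 1 kb of a coding start (x axis, log scale), for RNAP2 in blue and Med12 in orange, with circles for the FGF genes that have such a peak. Fgf9 and Fgf10 sit near 100 on the RNAP2 curve, the 3 receptors lie between 1022 and 1377, and the one circle on the Med12 curve is Fgf9 at 97.5.

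Med12 peaks were rarer at these starts, as they are over all genes. A Med12 peak lay at the start of 1 gene, Fgf9, with a score of 97.5, which 2.33% of all genes reach or exceed. Of all genes, 8.97% have a Med12 peak at a start. None of the 3 receptors had one within 1 kb of a coding start. With the starts of all transcripts counted, Fgfr2 had one as well as Fgf9. A Med12 peak lay at a coding start in 36.6% of the 2165 genes with an RNAP2 score of 1000 or more there. Among genes with any RNAP2 peak at a start the share was 19.9%. With 3 genes, nothing is read from this difference. The nearest Med12 peak to any coding start was 10303 bp away for Fgfr1, 33227 bp for Fgfr2 and 28495 bp for Fgfr3. For Fgfr1 that start is Fgfr1-005, which is 3634 bp from the nearest RNAP2 peak. The Fgfr1 starts under the RNAP2 start peak were 22747 to 23792 bp from the nearest Med12 peak.

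Among the ridge ligands, Fgf8 is the one expressed along the whole ridge. It lies on chromosome 19 from 45811288 to 45817405, on the minus strand, and carried a single RNAP2 peak of 1027 bp inside the gene, from 45814701 to 45815727, which overlaps no exon. Its score of 42.1 is near the minimum of the list, where 96.5% of RNAP2 peaks score as high or higher, and its near end is 1447 bp from the closest Fgf8 start. The other RNAP2 peaks of the neighbourhood lay at the starts of other genes. They were those of Npm3, with a score of 129, of Mgea5, with a score of 1001, and of Fbxw4, with a score of 360. The only Med12 peak, with a score of 78.0, was also at Mgea5. Between the start of Fgf8 and the peak at Fbxw4, centred 82761 bp away, neither list held a further peak besides the one inside Fgf8.

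Fgf4, a ligand of the posterior and distal ridge, had no peak of either list in its span on chromosome 7, from 152047291 to 152051148 on the plus strand. The nearest RNAP2 peak was 53247 bp from its start, at Oraov1, with a score of 56.2. The remaining 3 RNAP2 peaks of the neighbourhood lay in or at the start of Ccnd1, the gene of the cell cycle regulator cyclin D1. They had scores of 117, 152 and 299.6. The nearest Med12 peak was 317598 bp away. The Fgf4 promoter is rich in CpG, with 69.7% G and C and a CpG ratio (observed over expected from base composition) of 0.774, against medians of 52.7% and 0.384 over 32851 RefSeq promoters. The 250 bases before its start (chr7:152047041-152047290, plus strand), shown because this promoter had no peak, held none of the motifs spelled out with the distal sites.
Fgf4 promoter: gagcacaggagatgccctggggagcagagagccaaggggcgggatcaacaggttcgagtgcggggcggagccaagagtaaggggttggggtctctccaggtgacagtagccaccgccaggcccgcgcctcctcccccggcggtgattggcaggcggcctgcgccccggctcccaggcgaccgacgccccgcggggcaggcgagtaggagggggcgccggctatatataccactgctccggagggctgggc

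Fgf17, which in the limb is transcribed in the ridge, lies on chromosome 14 from 71036012 to 71042075 on the minus strand and likewise had no peak in its span. The closest RNAP2 peak was 16247 bp upstream, in Xpo7, with a score of 148. The other 2 RNAP2 peaks of the neighbourhood were a second one in Xpo7, with a score of 83.4, and one at the start of Nudt18, with a score of 118. No Med12 peak fell in the neighbourhood, and the nearest was 124547 bp away.

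Fgf9 was the ridge ligand with signal in both lists. The gene spans 58689384 to 58731174 of chromosome 14 on the plus strand. An RNAP2 peak scoring 95.2 (58692621 to 58694320) and a Med12 peak scoring 97.5 (58693066 to 58694228) overlap there. They cover the start of the transcript Fgf9-002 at 58693952, and the call at a start rests on that transcript. The RefSeq start, which is that of Fgf9-001 at 58691523, is 1098 bp from the RNAP2 peak and 1543 bp from the Med12 peak, just outside the interval of 1 kb. A second RNAP2 peak inside the gene, from 58719783 to 58721453, had a score of 68.1 and no Med12 partner. The other 3 RNAP2 peaks of the neighbourhood were in or at the start of Efha1, with scores of 51.5, 85.1 and 84.0.

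Marker genes of cell types were counted at coding starts, where 41.8% of all genes have an RNAP2 peak and 8.97% a Med12 peak. Of 12 markers of limb ectoderm and ridge, among them Krt5, Krt14, Trp63 and Sp8, 1 had an RNAP2 peak at a start, Esrp1 with a score of 55.2, and none had a Med12 peak there. The markers Krt5, Krt14, Trp63, Epcam and Cdh1, which define epithelium, had no peak of either list at a start. Of 12 markers of limb mesenchyme, all had an RNAP2 peak at a start, with scores of 370 to 3100, and 5 had a Med12 peak. Markers of cartilage had an RNAP2 peak in 4 of 5 cases, and Sox9 scored highest, at 2379. Those of muscle had one in 2 of 5 cases, those of endothelium in 1 of 5, those of blood in 1 of 4 and those of nerve and Schwann cells in 1 of 3, with no score over 283. In chromatin from a whole tissue, fewer cells of a type and less binding per cell cannot be told apart, and the part of the tissue's composition in the values of the ridge ligands was not tested.

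Fgf10, the mesenchymal ligand that maintains the ridge, had low values as well. Its span on chromosome 13 runs from 119458598 to 119580922 on the plus strand, but the 5′ part is covered by 2 noncoding transcripts alone and the coding transcript starts at 119503506. An RNAP2 peak 2431 bp wide (119502996 to 119505426) covers that start and scored 99.97, and 35.3% of all genes have a score at least as high. Another RNAP2 peak (119580620 to 119581648), scoring 56.2, lies across the 3′ end of the gene. The Med12 peaks of the neighbourhood, with scores of 40.6 and 46.6, are intergenic, centred 76924 bp upstream and 94430 bp downstream of the coding start, and overlap no RNAP2 peak. Fgf10 is the only protein-coding gene in its neighbourhood. The promoter has 60.7% G and C and a CpG ratio of 0.394, beside medians of 52.7% and 0.384 over RefSeq promoters. Both values are below those of the Fgf4 promoter. The 250 bases before its start (chr13:119503256-119503505, plus strand) are shown since they lie under the RNAP2 peak, and held none of the motifs searched.
Fgf10 promoter: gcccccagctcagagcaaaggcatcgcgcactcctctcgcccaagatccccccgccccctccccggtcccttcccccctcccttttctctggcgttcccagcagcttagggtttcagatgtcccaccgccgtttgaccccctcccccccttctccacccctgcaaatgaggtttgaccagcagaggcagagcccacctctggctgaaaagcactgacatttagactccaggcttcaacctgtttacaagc

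Fgf18, which is transcribed around forming cartilage, was the only mesenchymal gene without an RNAP2 peak at its start or inside the gene. It spans 33017430 to 33047400 of chromosome 11 on the minus strand. Inside it lay 2 Med12 peaks, which scored 44.6 (33022832 to 33023751) and 50.9 (33025433 to 33026381) and overlap neither an exon nor an RNAP2 peak. The remaining Med12 peak, scoring 52.6, lay between genes, centred 49534 bp upstream. Its RefSeq promoter has 78.7% G and C and a CpG ratio of 1.02. The RNAP2 peaks of its neighbourhood lay in or at the starts of the adjacent genes Npm1, which encodes the nucleolar protein nucleophosmin, and Tlx3, a homeobox gene. A peak in Npm1 that was 8789 bp wide and scored 292 reached to 3500 bp from the Fgf18 start, and the start of Npm1 had a score of 2977. At Tlx3 the scores were 369 and 555.

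The receptors carried most of the RNAP2 peaks, with 35 of 57. Of the 13 Med12 peaks they had 6 and the ligands 7. Of the 57 RNAP2 peaks in the 9 neighbourhoods, which share no peak with each other, 29 lay in the span or at a start of the gene itself, 15 at starts of other genes, 10 elsewhere in other genes and 3 between genes. The receptors had 24 of those 29, with 7 for Fgfr1, 16 for Fgfr2 and 1 for Fgfr3, and the 6 ligands had 5. All 9 neighbourhoods held an RNAP2 peak, as do 77.2% of all genes, and 7 held a Med12 peak, as do 54.7%. The median number of RNAP2 peaks in a neighbourhood was 4 for ridge ligands, 7 for mesenchymal genes and 2 over all genes. For Med12 these medians were 0.5, 2 and 1. Fgf10 and Fgf18 had 2 and 4 RNAP2 peaks, beside 3 to 5 for the ridge ligands, and when the receptors were left out the mesenchymal median was 3, so that the difference for RNAP2 changed from 3 to -1. For Med12, where these ligands had 2 and 3 peaks, it changed from 1.5 to 2. Both Fgf10 peaks (40.6 and 46.6) and an Fgf18 peak (44.6) score below 50. The difference without the receptors was not recomputed at that minimum. In the ridge group 13 of the 16 RNAP2 peaks lay in or at the starts of other genes, and the highest score at a ridge ligand itself was 95.2. In the mesenchymal group 26 of 41 lay in or at the gene, with scores up to 1425. Longer genes leave more room for such peaks, and these counts were not adjusted for length. The spans of Fgf4, Fgf17 and Fgf8 are 3858, 6064 and 6118 bp. Those of Fgfr1, Fgfr2 and Fgf10 are 62061, 104358 and 122325 bp. By share of the span covered by RNAP2 peaks, Fgf8 had 16.8%, from its single peak with a score of 42.1. Fgfr1 had 15.0%, Fgfr2 39.0% and Fgf10 2.24%.

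**Figure D2:**
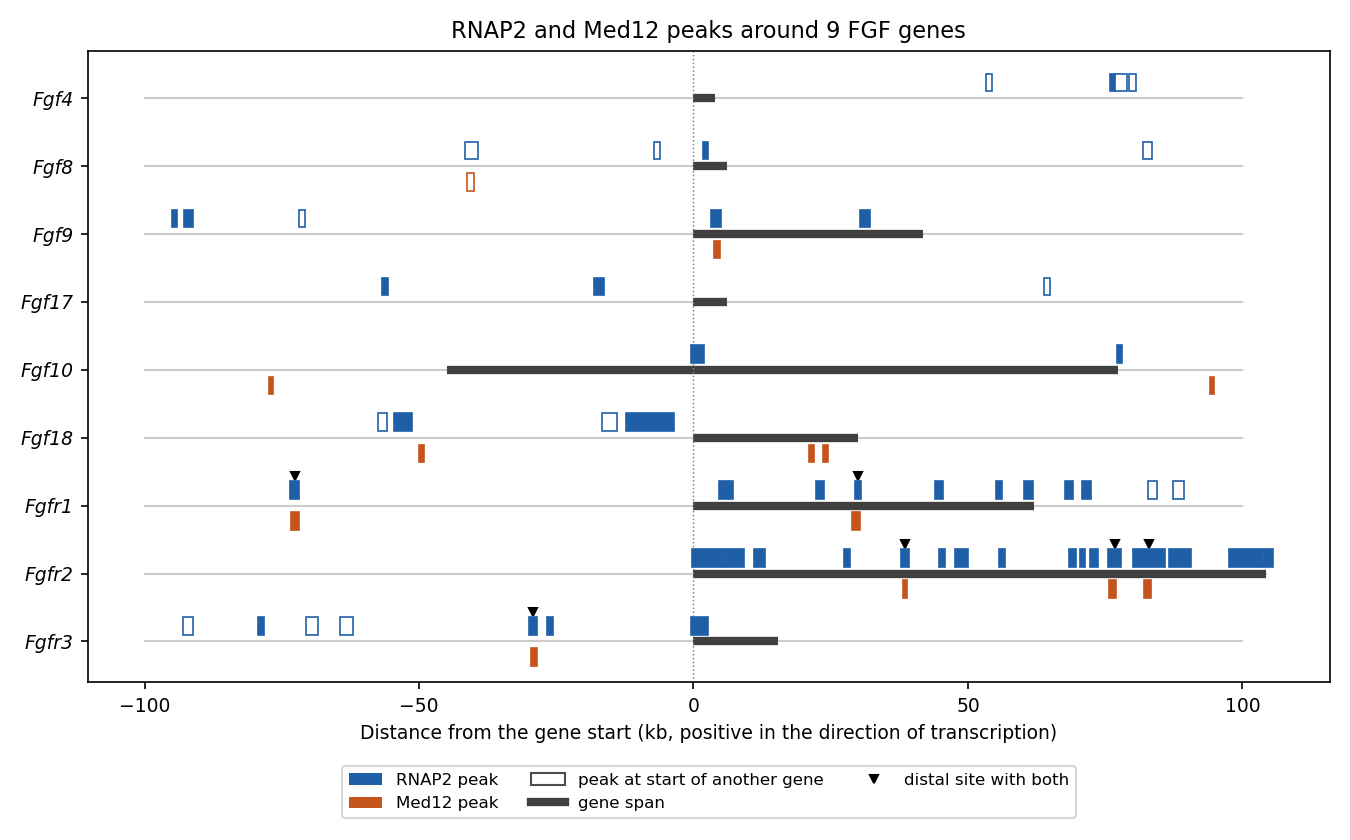
Peaks of both lists around each gene (x axis, distance from the gene start in kb, positive in the direction of transcription), with RNAP2 in blue above each line, Med12 in orange below it and peaks at starts of other genes left open. Filled RNAP2 peaks crowd along Fgfr1 and Fgfr2, and the black triangles, which mark the 6 distal sites with both proteins, stand at the 3 receptors.

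**Figure D3:**
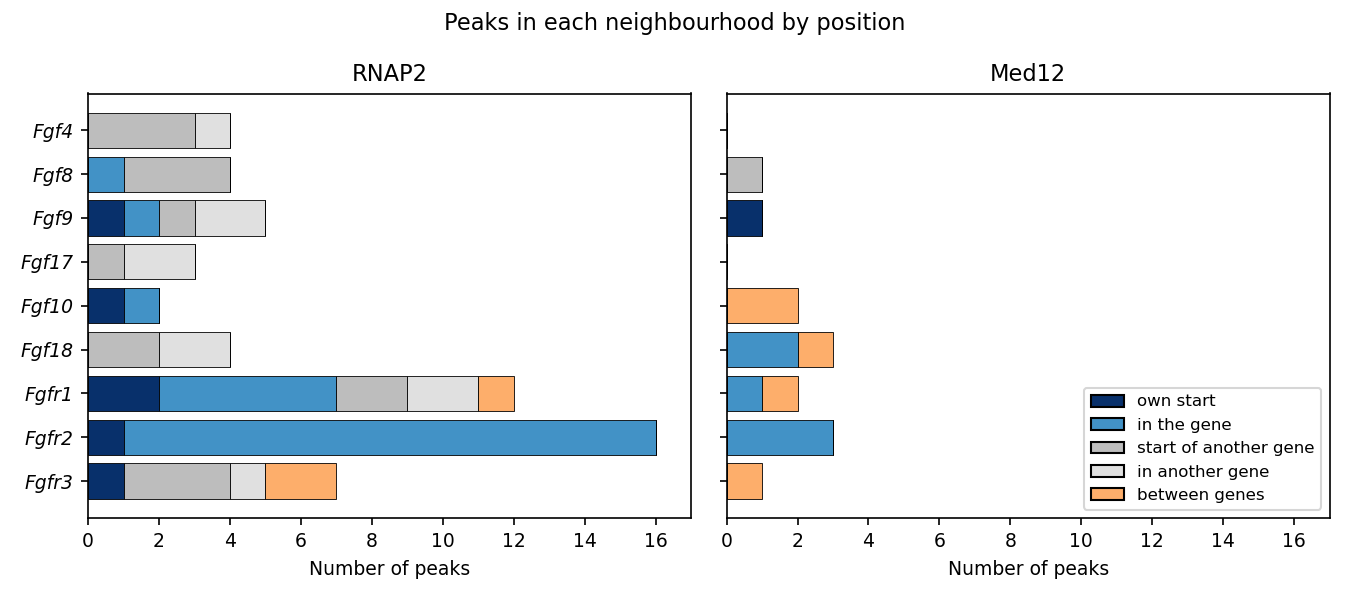
Number of peaks in each neighbourhood (x axis) by position relative to the genes, for RNAP2 on the left and Med12 on the right. Of the 16 RNAP2 peaks of Fgfr2 all are at its start or inside it, whereas for Fgf4, Fgf17 and Fgf18 every RNAP2 peak lies in or at the start of another gene.

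Fgfr2, whose b and c isoforms differ in an exon of the ligand-binding part, showed the densest signal. Its span on chromosome 7, from 137305965 to 137410322 on the minus strand, leaves out 1 annotated transcript, Fgfr2-007, which begins at 140315033 at the start of Ctbp2. RNAP2 peaks covered 39.0% of the span, a share that 3.35% of all genes reach, and 0.286% of genes have as many as 16 RNAP2 peaks in the span. The start peak was 5882 bp wide, from 137404667 to 137410548, and covered every coding start of the gene. When the span was divided into 3 stretches of equal length, peaks covered 34.7% of the stretch next to the start, 20.6% of the middle and 61.7% of the last one. The last stretch held the highest peak, which scored 1425 and was 5747 bp wide, and near the 3′ end a peak 6243 bp wide that scored 811. Only 0.659% of RNAP2 peaks are as wide as the latter. Of the 16 peaks, 10 had a score of at least 100 and the lowest had 42.2.

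The promoter of Fgfr2 that RefSeq gives is poor in CpG, with 43.7% G and C and a ratio of 0.282. The 250 bases before this start (chr7:137410323-137410572, minus strand) lie at the upstream edge of the start peak and held none of the motifs searched.
Fgfr2 promoter: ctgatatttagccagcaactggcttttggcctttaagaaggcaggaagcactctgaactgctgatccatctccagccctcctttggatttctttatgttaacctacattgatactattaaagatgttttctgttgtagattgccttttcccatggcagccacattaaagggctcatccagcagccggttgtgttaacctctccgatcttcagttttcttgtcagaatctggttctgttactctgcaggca

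**Figure D4:**
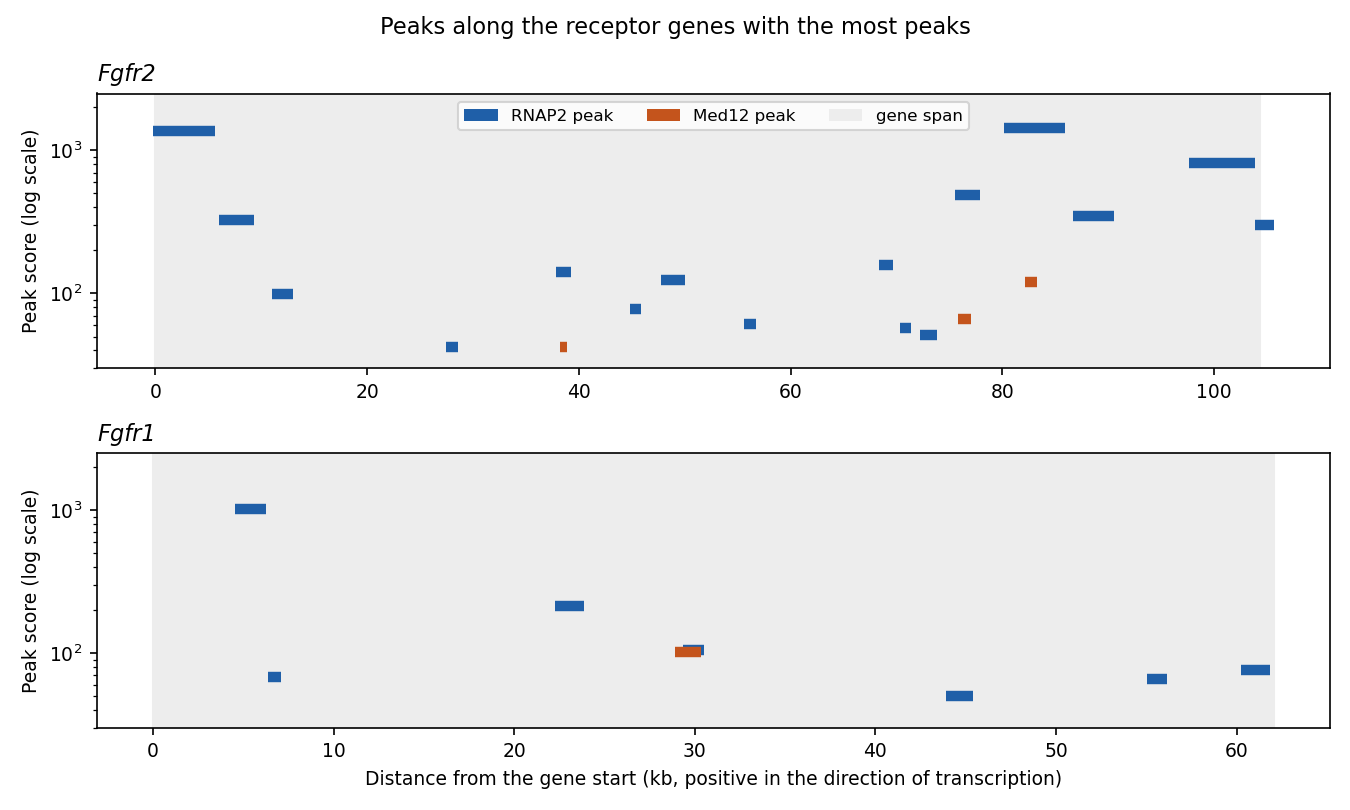
Score of each peak at or inside Fgfr2 and Fgfr1 (y axis, log scale) against distance from the gene start (x axis, kb), with the length of a bar giving the width of the peak and the grey area the gene span. In Fgfr2 the wide RNAP2 peaks stand at both ends, with scores up to 1425, and in Fgfr1 the peak with a score of 1022 stands near the start. RNAP2 and Med12 scores are not on a common scale.

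Fgfr1, the main receptor of the limb mesenchyme, spans 26624126 to 26686186 of chromosome 8 on the plus strand. Its start peak (26628686 to 26630376), with the score of 1022 given above, covers the starts of 4 coding transcripts, among them Fgfr1-001 at 26629264, but not the most upstream one, Fgfr1-012 at 26624126, which is 4560 bp from the nearest RNAP2 peak. A second peak, which scored 68.0, lies within 1 kb of the starts of Fgfr1-003 and Fgfr1-013 but not of Fgfr1-001. The other 5 peaks inside the gene had scores of 212, 106, 49.9, 65.7 and 76.2 from the start towards the end. RNAP2 peaks covered 15.0% of the span. Of the other RNAP2 peaks of the neighbourhood, those at the starts of Letm2 and Whsc1l1 scored 1401 and 795, and 2 inside Letm2 scored 48.3 and 94.7.

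Fgfr3, the receptor of cartilage cells, had its single RNAP2 peak at the start. The gene spans 34064373 to 34079716 of chromosome 5 on the plus strand, and the peak, 3220 bp wide (34063837 to 34067056), covers all its coding starts. No other peak of either list lay in the gene. The starts of Fam53a, Slbp and the pair of Tacc3 and Tmem129 in the neighbourhood scored 1249, 1640 and 711. The RefSeq promoter at 34064373 is rich in CpG, with 69.7% G and C and a ratio of 0.726. In the 250 bases before the start at 34064373 (chr5:34064123-34064372, plus strand) the capitals mark TTTATTG, the reverse complement of CAATAAA, a motif of the type bound by the HOX13 proteins of the distal limb. Of all RefSeq promoters of 300 bases, 4.60% hold this motif on either strand. The 250 bases before another RefSeq start of Fgfr3, at 34064955 under the same RNAP2 peak, held none of the motifs searched.
Fgfr3 promoter: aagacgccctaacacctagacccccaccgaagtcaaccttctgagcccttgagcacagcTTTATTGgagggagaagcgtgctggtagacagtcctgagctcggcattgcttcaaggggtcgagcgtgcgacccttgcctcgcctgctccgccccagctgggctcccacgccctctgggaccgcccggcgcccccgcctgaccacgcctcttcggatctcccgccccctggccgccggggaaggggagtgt

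The study took as candidate enhancers the sites away from promoters that had RNAP2 with a further mark. Sites with the coactivator p300 and acetylated H3K27 together also counted. Candidates were then examined by chromatin contacts and in transgenic reporter embryos. Only a part of that rule, RNAP2 with Med12, was read here around the FGF genes. A gene without such a site may still have a candidate by the study's rule. A distal site was defined as an RNAP2 peak over 1 kb from any coding start that overlaps a Med12 peak by at least 1 bp. There were 6 in the 9 neighbourhoods, 2 for Fgfr1, 3 for Fgfr2 and 1 for Fgfr3, and none for a ligand. Of all genes, 14.1% have such a site in the neighbourhood, and 1.29% have as many as the 3 of Fgfr2. RNAP2 peaks covered 39.0% of the Fgfr2 span and 61.7% of its last stretch, which held 2 of its Med12 peaks. In a gene covered to that extent a Med12 peak meets the definition more easily. Whether RNAP2 at these sites differs from RNAP2 along the transcribed gene was not tested. The 2 other places where the lists overlap in these neighbourhoods are the start of Mgea5 and the Fgf9 peak described above. By group, 0 of 4 ridge ligands and 3 of 5 mesenchymal genes had a distal site. The share of receptors and ligands with a site is a description of 9 genes, and it is not a test.

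The 6 sites were each read in a window of 300 bases centred on the overlap of the peaks, shown on the plus strand of mm9 because they are the only distal sites with both proteins in these neighbourhoods. None of the windows overlaps an exon of a coding gene. For Fgfr1, one lies 72628 bp upstream of the gene start between genes (chr8:26551349-26551648), with scores of 337 for RNAP2 and 85.2 for Med12. The other lies 29851 bp downstream, in an intron (chr8:26653828-26654127), with scores of 106 and 101.
Fgfr1 upstream site: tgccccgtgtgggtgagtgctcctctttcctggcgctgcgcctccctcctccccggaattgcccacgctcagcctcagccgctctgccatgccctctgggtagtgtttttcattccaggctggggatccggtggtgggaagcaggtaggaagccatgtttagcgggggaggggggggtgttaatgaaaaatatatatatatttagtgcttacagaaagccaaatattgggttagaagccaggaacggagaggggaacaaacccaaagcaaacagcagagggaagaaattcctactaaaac
Fgfr1 intronic site: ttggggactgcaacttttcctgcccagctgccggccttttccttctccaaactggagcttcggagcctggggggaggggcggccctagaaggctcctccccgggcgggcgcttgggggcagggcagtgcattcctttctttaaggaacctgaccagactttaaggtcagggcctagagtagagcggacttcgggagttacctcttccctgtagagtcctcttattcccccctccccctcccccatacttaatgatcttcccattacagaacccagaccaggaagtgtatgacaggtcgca

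For Fgfr2 the sites lie inside the gene, 38510 bp (chr7:137371663-137371962), 76393 bp (chr7:137333780-137334079) and 82731 bp (chr7:137327442-137327741) from the start. The RNAP2 scores were 141, 485 and 1425 and the Med12 scores 42.0, 66.7 and 121, so that both lists gave the order of increasing distance from the start. In the first window the capitals mark CCATAAA and in the second CAATAAA, both of the HOX13 type. Over the 2837 distal sites with both peaks in the genome, 12.8% of windows of this length hold CCATAAA and 15.6% hold CAATAAA, on either strand.
Fgfr2 site at 38510 bp: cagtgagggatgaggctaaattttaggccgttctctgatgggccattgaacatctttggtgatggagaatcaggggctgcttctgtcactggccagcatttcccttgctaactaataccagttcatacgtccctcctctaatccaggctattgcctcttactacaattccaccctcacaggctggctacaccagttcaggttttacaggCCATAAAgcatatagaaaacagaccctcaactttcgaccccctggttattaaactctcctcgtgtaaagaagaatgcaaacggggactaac
Fgfr2 site at 76393 bp: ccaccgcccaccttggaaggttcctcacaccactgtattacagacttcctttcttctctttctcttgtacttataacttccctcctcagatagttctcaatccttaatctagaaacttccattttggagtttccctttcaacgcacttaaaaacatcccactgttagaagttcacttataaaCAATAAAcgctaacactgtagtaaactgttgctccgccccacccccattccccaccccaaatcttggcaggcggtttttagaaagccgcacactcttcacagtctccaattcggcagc
Fgfr2 site at 82731 bp: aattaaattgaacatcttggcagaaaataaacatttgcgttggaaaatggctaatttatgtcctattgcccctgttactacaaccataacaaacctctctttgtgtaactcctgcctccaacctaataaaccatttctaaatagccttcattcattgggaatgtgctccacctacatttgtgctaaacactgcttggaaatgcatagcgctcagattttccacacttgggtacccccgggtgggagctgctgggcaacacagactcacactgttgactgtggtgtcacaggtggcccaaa

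For Fgfr3 the site lies 29054 bp upstream, between Tacc3 and Fgfr3 (chr5:34035170-34035469), with scores of 120 and 83.8, and a further RNAP2 peak with a score of 144 and no Med12 partner follows at 26130 bp. Its window has 62.7% G and C and a CpG ratio of 0.685, the highest of the 6, against medians of 43.3% and 0.259 over all such sites.
Fgfr3 upstream site: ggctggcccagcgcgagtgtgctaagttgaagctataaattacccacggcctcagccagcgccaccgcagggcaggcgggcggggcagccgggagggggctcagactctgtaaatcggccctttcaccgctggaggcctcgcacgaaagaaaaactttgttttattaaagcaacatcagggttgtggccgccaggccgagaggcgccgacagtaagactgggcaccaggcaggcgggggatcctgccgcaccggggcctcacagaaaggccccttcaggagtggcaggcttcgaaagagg

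Besides the HOX13 type, 4 motifs were searched on both strands of the 6 windows: CCGGAAGT, bound by the ETS factors through which FGF signals act, GACCACCCA, bound by GLI factors, ATCAAAG, bound by TCF/LEF factors, and TGTGGTT, bound by RUNX factors. None of these exact stretches was found in any of them, and variants of the letters were not searched. Over all 2837 distal sites their shares are 0.423%, 0.176%, 6.10% and 8.25%, so that few or no matches would be counted in 6 windows of this length at these rates. A match is a stretch of letters and was not tested for binding.

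The rest of the family and of the pathway were read in the same way. Of 20 other FGF family genes, 2 had an RNAP2 peak at a start, Fgf20 with a score of 196 and Fgfrl1, a receptor-like protein without a kinase, with a score of 87.0, and none had a Med12 peak there, beside 41.8% and 8.97% of all genes. Among those without either were Fgf2, Fgf7 and Fgfr4. Of 22 genes that carry or limit the signal, 20 had an RNAP2 peak at a start and 8 a Med12 peak, beside the same 41.8% and 8.97% of all genes, and their median RNAP2 score was 536. The highest RNAP2 scores were 3181 for Dusp6, a phosphatase that shuts off the kinase ERK, 2356 for Hs2st1 and 1465 for Ext1, both enzymes of heparan sulfate, 1941 for Spry2, an inhibitor induced by FGF, and 1437 for Flrt3, a membrane partner of the receptors. The genes without an RNAP2 peak at a start were Grb2, an adaptor, and Etv4, an ETS factor. The 8 genes with a Med12 peak at a start were Dusp6, with a score of 170, Spred1, with 191, Spred2, with 277, and Il17rd, with 58.3, all inhibitors of the pathway, and Grb2, Shc1, Hs2st1 and Flrt2, with scores of 42.7 to 53.2.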

How the data were processed

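Distal forelimb cells at E12.5 were used for ChIP-seq with 1 library per antibody (RNAP2 and Med12) and 1 input library, which was not analysed here. According to the submitters' processing notes and the paper's methods, the reads were mapped to mm9 with Bowtie, redundant reads were removed and peaks were called per library with MACS 1.4.1. Use of the input as the control is not given in the sources used here. Each deposited peak carries the authors' MACS score, that is −log10 of the p-value multiplied by 10. The lists hold no counts, so the counting error of a peak cannot be read from them. Read totals per library are stated in the paper's methods and were not used here.

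Overlaps of at least 1 bp were counted with Python 3.11.15, after a check on simulated peaks, and figures were drawn with matplotlib 3.10.9. Genes and the mm9 sequence came from GENCODE vM1 and NCBIM37. The start of a gene is its most upstream coding start, a peak at a start lies within 1 kb of any coding start, and a neighbourhood is the gene span with 100 kb on each side of the start. Just inside that limit lay a peak 94566 bp upstream of Fgf9, with a score of 51.5, and just outside it a site with both peaks 107259 bp downstream of Fgfr2, with an RNAP2 score of 63.6. The transcript Fgfr2-007 was left out, since it extends the span to 3009069 bp. A second, shorter annotation entry named Fgfr1 was not used.

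With 1 library per antibody no test was run, and the same counts over all protein-coding genes are given as background. RefSeq promoter windows (GRCm38.p6, 250 bases before to 50 after a start) were available for Fgf4, Fgf9, Fgf10, Fgf18, Fgfr2 and Fgfr3, and all 7 matched mm9 whole. All 9 genes are named, and neighbours where a peak lies at their start or in their span. Of the other family and pathway genes, the 5 with the highest RNAP2 score at a start and those with a Med12 peak there could be named, and the remaining names were chosen after their values were seen. The genes and lists were chosen with earlier results of these data known. Alternatives were other score minima, start intervals, neighbourhood sizes, overlap rules and groupings.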

Additional observations from a re-analysis of the deposited data

How the results depend on the processing

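No paired analysis was possible because there was a single library for each antibody. In all, 7 results were recomputed under the alternatives, which gave 52 values, 12 of them from alternatives chosen after the lists were seen. Of these, 29 stayed within 1.5 times the reported value, 22 moved further and 1 reversed. The reversal is the difference in the median number of RNAP2 peaks, mesenchymal genes less ridge ligands, which was 3 and became -1 without Fgfr1, Fgfr2 and Fgfr3 (an alternative chosen after the lists were seen) and 0 without Fgfr2 and Fgfr3. With 50 kb on each side this difference was 1.5 for RNAP2 and 0.5 for Med12, and per 100 kb of neighbourhood, a change of unit, it was 1.5 and 0.750. A score of at least 100 left 3 genes with RNAP2 and 0 with Med12 at a start, 34 RNAP2 and 2 Med12 peaks in the neighbourhoods, 2 distal sites and a Med12 difference of 0. These are fewer peaks by construction. With the 5′ end of the gene span as the only start, 2 genes (Fgfr2 and Fgfr3) had an RNAP2 peak there and 0 a Med12 peak, since the most upstream transcripts of Fgf9, Fgf10 and Fgfr1 begin elsewhere. With starts of all transcripts, 2 genes (Fgf9 and Fgfr2) had a Med12 peak. Keeping Fgfr2-007 gave 88 RNAP2 and 26 Med12 peaks and 2 genes with Med12 at a start, the added one at the start shared with Ctbp2. With 200 kb on each side there were 27 Med12 peaks and 12 distal sites, with 50 kb 36 RNAP2 peaks, and within gene spans alone 29 RNAP2 and 7 Med12 peaks. With the score of at least 50 that the stated threshold corresponds to, the calls at starts were unchanged in number (5 and 1) and 5 distal sites were left, 2 of them for Fgfr2. Depth limits all calls of a missing peak.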

Other observations

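Beyond 100 kb, the distal site with both peaks that lay nearest to each ligand was 141364 bp from the start of Fgf18, with scores of 179 for RNAP2 and 159 for Med12, and 148088 bp from that of Fgf17, with scores of 272 and 70.4. For Fgf8 it lay 265902 bp away in Btrc, beyond Fbxw4, with scores of 383 and 180, and for Fgf10 267101 bp downstream, with scores of 127 and 48.3. For Fgf4 the distance was 317979 bp and for Fgf9 it was 1144470 bp. The lists do not say which gene a site belongs to.

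Around Fgfr2, 2 further sites with both peaks lay upstream inside Ate1, 158836 bp and 162884 bp from the Fgfr2 start. Their RNAP2 scores were 410 and 162 and their Med12 scores 59.8 and 205, and the latter is above the Med12 score of 121 at the highest site inside Fgfr2. With 200 kb on each side, Fgfr2 had 6 of the 12 distal sites of the 9 genes, Fgf17 and Fgfr1 had 2 each, Fgf18 and Fgfr3 had 1 each and the others none, whereas 24.8% of all genes had at least 1.

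Of the 20 other FGF family genes, 5 had a distal site with both peaks in the neighbourhood without a peak at a start: Fgf2, with 2, and Fgf12, Fgf22, Fgf23 and Fgfr4, with 1 each. Of all genes, 14.1% have such a site, and nothing particular to the family is read from a count of 5 in 20. These genes were named after their values were seen.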
